A study of Mus musculus with 6 samples.

Results

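The genes described here are the nuclear subunits of oxidative phosphorylation, chosen by gene symbol from the deposited normalized RNA-seq values. The symbols were Nduf with a letter a, b, c, s or v and a digit, Sdha to Sdhd, every Uqcr gene, Cox4 to Cox8 and every Atp5 gene, with pseudogenes marked -ps left out. Of the 26110 genes listed, 81 matched, and 78 of them averaged 10 or more over the 6 libraries. These 78 are the members, and 17812 genes in all reached that mean and were tested. Just inside the limit lay Cox8b with a mean of 12.2, Cox6b2 with 21.5 and Atp5s with 25.4, and just outside it lay Cox6a2 with 5.71, Cox4i2 with 4.39 and Ndufa4l2 with 2.16.

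The study sorted MHCIIhi cells, which carry high levels of MHC class II, from the muscularis externa (ME), the muscle layer of the small bowel wall. They were split by the chemokine receptor CX3CR1 into CX3CR1- and CX3CR1+ cells, to ask how the transcriptomes of these populations differ, and 3 bulk RNA-seq libraries were made of each. All mice were untreated and had the genotype CX3CR1+/GFP, in which GFP takes the place of 1 copy of Cx3cr1 and reports its activity, so that the cells of both groups carry only 1 intact copy. Tissue of several mice was pooled for sorting, and it is not stated whether each library had a pool of its own, so that n counts libraries and the p-values measure the spread between them.

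Oxidative phosphorylation passes electrons from NADH and succinate to oxygen through complexes I to IV of the inner mitochondrial membrane. The proton gradient that complexes I, III and IV build up then drives complex V, the ATP synthase. Complexes I, III, IV and V contain a few proteins made inside the mitochondrion, while all other subunits, and the whole of complex II, come from nuclear genes, so that each complex depends on the expression of both genomes.

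Values are normalized read numbers that are comparable between libraries but not between genes of different length. Log2 fold changes are CX3CR1- over CX3CR1+, and above 0 where CX3CR1- cells had more. A gene was called where limma gave a p, adjusted by Benjamini-Hochberg over all 17812 genes, that did not exceed 0.05, and replicates are numbered by library number within each population. The libraries held about 5346379 to 17616748 reads, with overlapping depths, and 3 reads corresponded to a value of 1.39 to 5.36. Mitochondrially encoded genes took 47.5 to 54.9% of the normalized total in the CX3CR1- and 18.1 to 21.2% in the CX3CR1+ libraries, and this sets how the libraries compare under other scalings. Cx3cr1 itself, the gene of the sort, measured 18.9 to 28.5 in CX3CR1- and 346 to 380 in CX3CR1+ cells. The labels call the cells dendritic cells and the study calls them macrophages. All 8 dendritic cell markers were called higher in CX3CR1- cells (summed value 3563 to 4047 against 211 to 281) and all 8 macrophage markers lower (5372 to 6563 against 27885 to 31022). Cx3cr1 is 1 of these macrophage markers, and the sort fixed its direction in advance. The study's name rests in part on IBA-1 protein staining and flow cytometry, which these RNA values do not cover.

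Most nuclear subunits had somewhat larger values in CX3CR1- cells. The log2 fold change was above 0 for 70 of the 78 members, with a median of 0.48 and quartiles of 0.29 and 0.67, whereas the median of all genes tested was 0.00 and 49.8% of them lay above 0. The shift was mostly too small for single genes: 12 members (15.4%) were called higher, against 13.3% of all genes tested, and none was called lower, against 11%. Without adjustment, 30 of the 78 members reached p of 0.05 in the higher direction, against 18.6% of all genes, and 0 in the lower direction, against 16.8%. With a 2-fold change required as well, 8 members were called higher, against 12.2% of all genes, and 0 lower, against 8.15%. After adjustment, the share called higher was therefore near that of all genes, and the share called lower was below it. Without adjustment, the share in the higher direction was above that of all genes.

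The groups of libraries separated more often than single calls show. In 43 of the 78 members (55.1%) all 3 CX3CR1- libraries lay above all 3 CX3CR1+ libraries, against 20.3% of all genes tested. In none did all 3 lie below, against 19.8%. Averaged over the members, the log2(value + 1) was 7.78, 7.51 and 7.65 in CX3CR1- replicates 1, 2 and 3 and 7.19, 7.23 and 6.92 in CX3CR1+ replicates 1, 2 and 3. The groups did not overlap, and the difference was 0.53 on the deposited scale. The same mean over all 17812 genes tested was 6.16 to 6.23 in CX3CR1- and 5.96 to 5.99 in CX3CR1+ libraries, a difference of 0.23 that did not overlap either.

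This direction holds on the deposited scale and relative to all genes, but it is not kept when every library is scaled to the same total. The total includes the mitochondrially encoded RNA, and equal totals moved the median of all genes by -0.55 and that of the members to -0.08. With this scaling, 28 of the 78 members had a log2 fold change above 0. The members then stood 0.47 above the median of all genes, with 70 of 78 above it. As a share of the whole normalized total, the members took 0.210, 0.193 and 0.201% in CX3CR1- replicates 1, 2 and 3 and 0.220, 0.223 and 0.198% in CX3CR1+ replicates 1, 2 and 3, and the groups overlapped. Of the total without mitochondrially encoded genes they took 0.465, 0.368 and 0.424% against 0.279, 0.277 and 0.242%, with no overlap. Scaling to that second total moved the median of all genes by 0.17 and that of the members to 0.65. Of the 78 members, 29 were then called higher (against 15.7% of all genes) and 0 lower (against 8.44%).

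**Figure D1:**
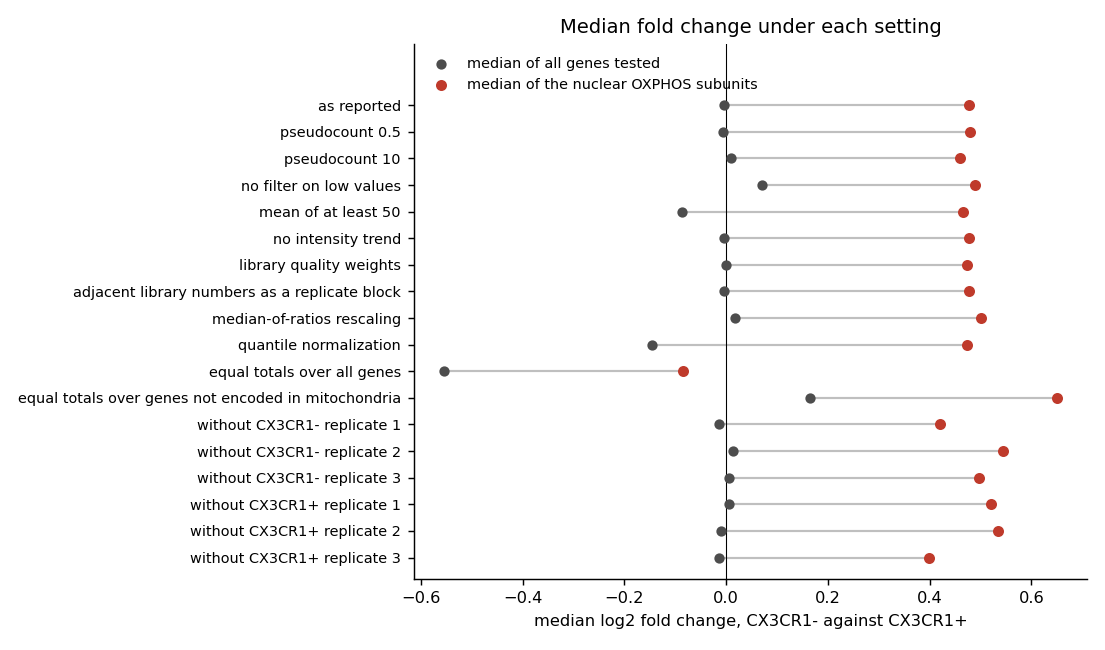
Median log2 fold change (CX3CR1- against CX3CR1+, horizontal axis) of the 78 nuclear subunits (red) and of all genes tested (grey) under each processing setting (rows); the bottom 6 rows each leave out 1 library. The members lie 0.41 to 0.62 above all genes under every setting shown, and their own median falls below 0 with equal totals over all genes, where it is -0.08.

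Markers of other cell types moved with the sort as well. All 12 enterocyte markers were called higher in CX3CR1- cells, with a summed value of 19237 to 33860 against 101 to 143, and Apoa4 and Alpi were at 0 in all CX3CR1+ libraries. Also higher were 5 of 6 secretory and crypt epithelial, 5 of 6 fibroblast and mesothelial, 5 of 5 lymphocyte and plasma cell, 4 of 5 endothelial, 2 of 6 neuron and glia, 2 of 2 mast cell and granulocyte and 1 of 8 smooth muscle markers. None of the 3 cardiac and skeletal muscle markers tested was called. Their part in the subunit values was not tested. In bulk samples, more cells of a type and more RNA per cell cannot be told apart.

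By complex, the shift was of similar size throughout. The median log2 fold change was 0.41 in complex I (35 members), 0.45 in complex II (4 members), 0.56 in complex III (8 members), 0.45 in complex IV (15 members) and 0.54 in complex V (16 members). The number of members called higher was 4, 1, 1, 2 and 4, in the same order. As shares these were 11.4, 25, 12.5, 13.3 and 25%, against 13.3% of all genes tested. Members whose groups did not overlap, all of them higher in CX3CR1- cells on the deposited scale, numbered 17 of 35, 3 of 4, 3 of 8, 8 of 15 and 12 of 16. These were 48.6, 75, 37.5, 53.3 and 75%, against 20.3% of all genes tested. Whether complexes differ from each other was not tested.

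**Figure D2:**
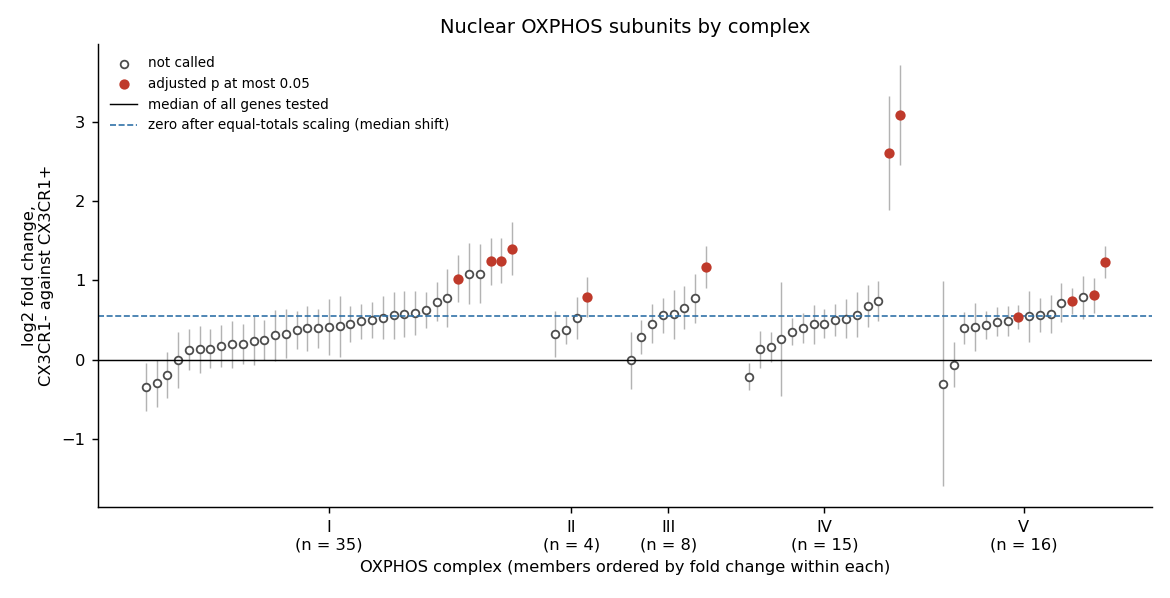
Log2 fold change (CX3CR1- against CX3CR1+, vertical axis) of each of the 78 members, with its standard error as a grey bar, by complex (horizontal axis); filled red points are the 12 called members. Most points lie between the line of all genes and 1, and Cox7a1 and Cox8b stand apart at 3.09 and 2.61; the dashed line marks where 0 would lie after scaling to equal totals, which puts many members below it.

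**Figure D3:**
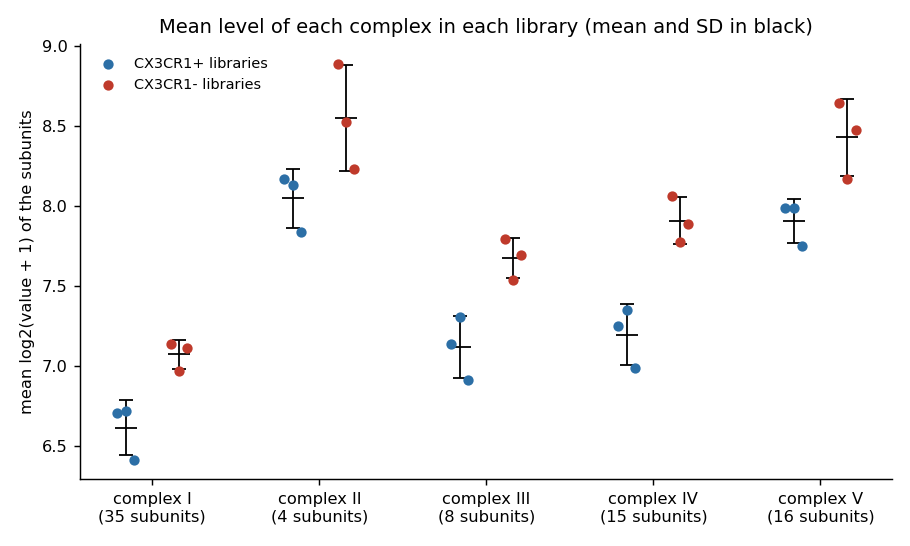
Mean log2(value + 1) of the members of each complex (vertical axis) in each library, with CX3CR1+ in blue and CX3CR1- in red, and the group mean and SD over 3 libraries in black. The 2 groups of libraries do not overlap in any complex on the deposited scale, and the difference of the group means is 0.46, 0.50, 0.56, 0.71 and 0.52 for complexes I to V; with equal totals it changes sign in all but complex IV, whose 0.71 includes Cox7a1 and Cox8b and is 0.39 for members with a mean of at least 50.

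Complex I takes electrons from NADH, and 7 of its nuclear subunits form the core that carries the flavin and the iron-sulfur clusters. Among these 7, only Ndufv1 was called. Ndufv1, which binds NADH and the flavin, measured 108, 114 and 167 in CX3CR1- replicates 1, 2 and 3 and 54.1, 61.7 and 32.4 in CX3CR1+ replicates 1, 2 and 3. The groups did not overlap, and the log2 fold change was 1.40 (SE 0.335, adjusted p = 0.0125), the highest in complex I. Without CX3CR1+ replicate 3, the lowest library, it was 1.12 and no longer called (adjusted p = 0.0535).

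Ndufs1, the largest subunit of the electron input module, measured 186, 160 and 299.7 in CX3CR1- and 143, 165 and 114 in CX3CR1+ replicates, which overlap (log2 fold change 0.57, SE 0.288, adjusted p = 0.187). Ndufs8, an iron-sulfur subunit, measured 79.3, 131 and 87.8 against 122, 126 and 89.2 (log2 fold change -0.20, SE 0.292, adjusted p = 0.677) and was the only core subunit with a negative value. Over the 7 core subunits the median was 0.45.

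The other 28 members of complex I are accessory subunits, which surround the core and are needed to build it. Their median log2 fold change was 0.39, 25 of 28 were above 0, and 3 (10.7%, against 13.3% of all genes) were called: Ndufa6, Ndufa8 and Ndufa11. Ndufa6 measured 102, 156 and 136 in CX3CR1- and 49.95, 64.8 and 48.2 in CX3CR1+ replicates (log2 fold change 1.25, SE 0.288, adjusted p = 0.0103). Ndufa8 measured 122, 104 and 109 against 60.6, 37.7 and 43.9 (log2 fold change 1.24, SE 0.295, adjusted p = 0.0118). Ndufa11, which sits at the membrane arm, measured 91.8, 94.8 and 117 against 44.4, 42.7 and 62.3 (log2 fold change 1.02, SE 0.294, adjusted p = 0.0292). In all 3 genes the CX3CR1- libraries were above every CX3CR1+ library, and the fold change was above 2-fold. The call of Ndufa8 was lost without CX3CR1+ replicate 2 (adjusted p = 0.0587), and that of Ndufa11 without CX3CR1- replicate 3 or CX3CR1+ replicates 1 or 2 (adjusted p up to 0.117) and under quantile normalization (adjusted p = 0.0875).

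A pair of subunits of the membrane arm, Ndufb6 and Ndufb4, had fold changes of the same size without a call. Ndufb6 measured 67.8, 64.4 and 52.9 against 37.0, 18.9 and 32.6 (log2 fold change 1.09, SE 0.367, adjusted p = 0.0565), and Ndufb4 measured 46.0, 36.2 and 43.3 against 22.5, 14.0 and 22.1 (log2 fold change 1.08, SE 0.387, adjusted p = 0.0693). Reads of these genes may be shared with near copies, since 34.4% of the 31-base stretches of the Ndufb6 transcript and 19.1% of those of Ndufb4 also occur in transcripts of other genes.

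At the low end of complex I stood Ndufc2 and Ndufa7. Ndufc2, a small membrane subunit, measured 100.03, 173 and 163 in CX3CR1- and 238, 140 and 175 in CX3CR1+ replicates (log2 fold change -0.35, SE 0.299, adjusted p = 0.450). Ndufa7 measured 70.5, 59.5 and 85.8 against 76.1, 114 and 78.3 (log2 fold change -0.30, SE 0.297, adjusted p = 0.515). The groups overlapped in both genes on the deposited scale, whereas with equal totals both were called lower, together with Cox7a2l of complex IV. That scaling called 30.2% of all genes tested lower.

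Complex II, or succinate dehydrogenase, links the citrate cycle to the electron chain. Sdhd, a membrane anchor of the complex, was its only called member. It measured 529, 309 and 299 in CX3CR1- replicates 1, 2 and 3 and 228, 208 and 199.7 in CX3CR1+ replicates 1, 2 and 3, with a log2 fold change of 0.79 (SE 0.254, adjusted p = 0.0471). CX3CR1- replicate 1 stood highest, and without that library the log2 fold change was 0.52 and the call was lost (adjusted p = 0.115), as it was without any one CX3CR1+ library (adjusted p up to 0.144), without an intensity trend (adjusted p = 0.116) and without the filter on low values (adjusted p = 0.0565).

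Sdha, the flavoprotein that oxidizes succinate, measured 987, 754 and 819 against 678, 672 and 614 (log2 fold change 0.37, SE 0.174, adjusted p = 0.155). Sdhb, the iron-sulfur subunit, measured 195, 179 and 129 against 124, 127 and 96.5 (log2 fold change 0.52, SE 0.261, adjusted p = 0.183). Sdhc, the second membrane anchor, measured 489, 436 and 251 against 352, 345 and 226 (log2 fold change 0.32, SE 0.291, adjusted p = 0.476). The groups of Sdha and Sdhb did not overlap, those of Sdhc did, and all 3 fold changes fell below 0 with equal totals.

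Complex III passes electrons from ubiquinol to cytochrome c. Uqcrfs1, the Rieske iron-sulfur protein that takes the first electron, measured 225, 286 and 224 in CX3CR1- and 114, 138 and 79.3 in CX3CR1+ replicates. The groups were well apart, with a log2 fold change of 1.17 (SE 0.268, adjusted p = 0.00981), and it was the only called member of the complex. Uqcrc1, a core protein without a redox centre, measured 231, 154 and 211 against 165, 111 and 81.3 and overlapped (log2 fold change 0.77, SE 0.306, adjusted p = 0.0974). Uqcr11, a small subunit at the rim of the complex, measured 185, 76.0 and 95.2 against 98.9, 143 and 96.8 (log2 fold change -0.01, SE 0.355, adjusted p = 0.988).

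Cyc1, the cytochrome c1 of complex III, has a symbol that the rule does not cover. It measured 238, 182 and 184 in CX3CR1- and 97.6, 119 and 96.3 in CX3CR1+ replicates and was called higher (log2 fold change 0.94, SE 0.241, adjusted p = 0.0169). Its call was lost without CX3CR1- replicate 1 or CX3CR1+ replicates 1 or 3 (adjusted p up to 0.0696) and with equal totals over all genes (0.218). Both nuclear redox carriers of complex III, Uqcrfs1 and Cyc1, thus passed the test on the deposited scale.

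Complex IV, the cytochrome c oxidase, reduces oxygen to water. Several of its nuclear subunits exist in alternative forms, of which one is found in most tissues and another is typical of heart, skeletal muscle or other particular tissues. A pair of such forms, Cox7a1 and Cox8b, had fold changes well above those of the other members. Both passed the limit of 10 on the mean only through the CX3CR1- libraries (means of 55.3 and 21.6, against 4.53 and 2.73 in CX3CR1+), so that members passing in this way had to differ, and their rank and calls support nothing about the members as a group. Cox7a1, the heart and muscle form of subunit VIIa, measured 98.8, 47.3 and 19.8 in CX3CR1- replicates 1, 2 and 3 and 5.75, 4.21 and 3.63 in CX3CR1+ replicates 1, 2 and 3. Every CX3CR1- library was above the CX3CR1+ libraries, but the CX3CR1- libraries themselves ranged from 19.8 to 98.8, and the log2 fold change was 3.09 (SE 0.629, adjusted p = 0.00521).

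Cox8b, the muscle form of subunit VIII, measured 11.5, 21.5 and 31.9 in CX3CR1- and 1.85, 4.92 and 1.42 in CX3CR1+ replicates. The order of the CX3CR1- libraries was the reverse of that for Cox7a1, and the log2 fold change was 2.61 (SE 0.724, adjusted p = 0.0247). Depth limits both genes: the CX3CR1+ values rest on about 12.4, 5.13 and 2.57 reads for Cox7a1 and 4, 6 and 1 reads for Cox8b. In CX3CR1+ replicate 3 both were at or under the value of 3 reads. The Cox8b call was lost without CX3CR1- replicate 3 and without CX3CR1+ replicates 1 or 3, with adjusted p up to 0.0815, and under quantile normalization (adjusted p = 0.0568), with log2 fold changes of 2.28 to 3.00 over all leave-outs. Cox7a1 lies on chr7:30184144-30186078 and Cox8b on chr7:140898945-140900446 (GRCm38, plus and minus strand).

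**Figure D4:**
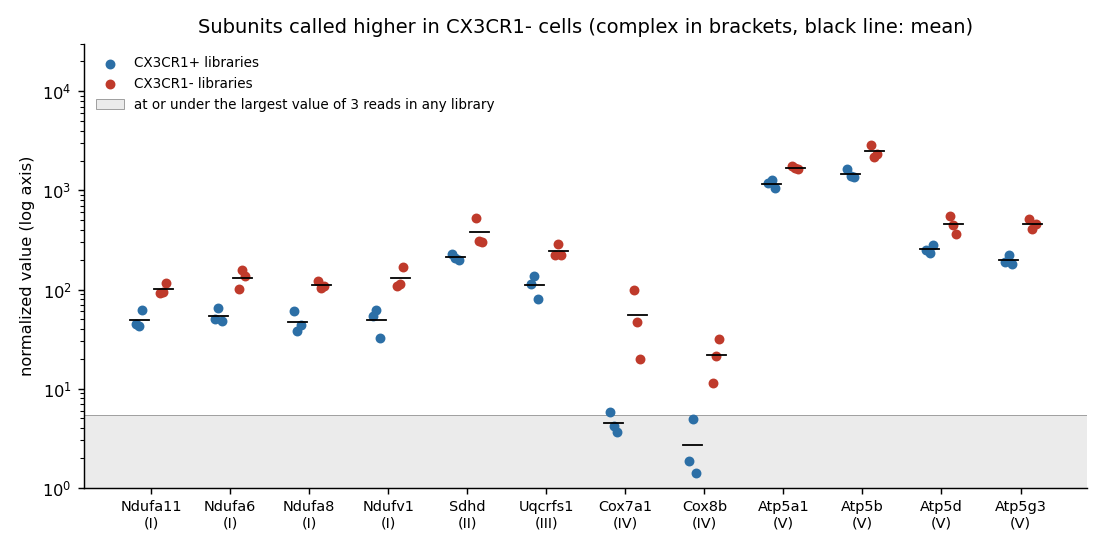
Normalized values (log axis) of the 12 called members in each CX3CR1+ (blue) and CX3CR1- (red) library, with group means as black lines; the grey band marks values up to 5.36, the largest value that 3 reads have in any library. In all 12 genes the groups do not overlap on the deposited scale, and only Cox7a1 and Cox8b reach into the band, in the CX3CR1+ libraries.

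The common forms differed far less. Cox7a2, the form of subunit VIIa found in most tissues, measured 176, 197 and 242 in CX3CR1- and 150.3, 179 and 122 in CX3CR1+ replicates, which overlap (log2 fold change 0.45, SE 0.247, adjusted p = 0.228). Cox8a measured 596, 556 and 515 against 444, 404 and 368, with no overlap and no call (log2 fold change 0.45, SE 0.180, adjusted p = 0.0976). With equal totals both fold changes fell below 0. Cox7a2l, a relative that helps to join complexes III and IV, measured 1088, 819 and 977 against 1145, 1195 and 1000.2 (log2 fold change -0.22, SE 0.173, adjusted p = 0.412).

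Set against its common form per kb of transcript, which allows levels of different genes to be compared, the muscle form was a variable share in CX3CR1- cells. Cox7a1 stood at 94.3, 40.2 and 13.7% of the Cox7a2 level in CX3CR1- replicates 1, 2 and 3 and at 6.41, 3.94 and 4.99% in CX3CR1+ replicates 1, 2 and 3. Cox8b stood at 2.94, 5.89 and 9.47% of Cox8a against 0.636, 1.86 and 0.588%. These ratios are taken within a library and do not depend on its scaling, and the groups did not overlap in either. Of the cardiac and skeletal muscle markers, Acta1, the skeletal alpha-actin, was too low for a test and measured 10.9, 18.8 and 3.80 in CX3CR1- and 1.12, 0.782 and 0 in CX3CR1+ replicates, with all 3 CX3CR1+ values under that of 3 reads. Its groups did not overlap, as in Cox7a1 and Cox8b, and its part in their values was not tested. Tnnt2, Ckm and Myh7 were tested and not called, with log2 fold changes of -0.87, -1.17 and 0.37, so that Tnnt2 and Ckm went the other way. The summed markers of this list were 54.2 to 86.5 in CX3CR1- and 79.5 to 119 in CX3CR1+ libraries, with Tnnt2 the highest of the list in all 6, whereas the summed smooth muscle markers were 1050 to 2852 and 2038 to 2828.

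**Figure D5:**
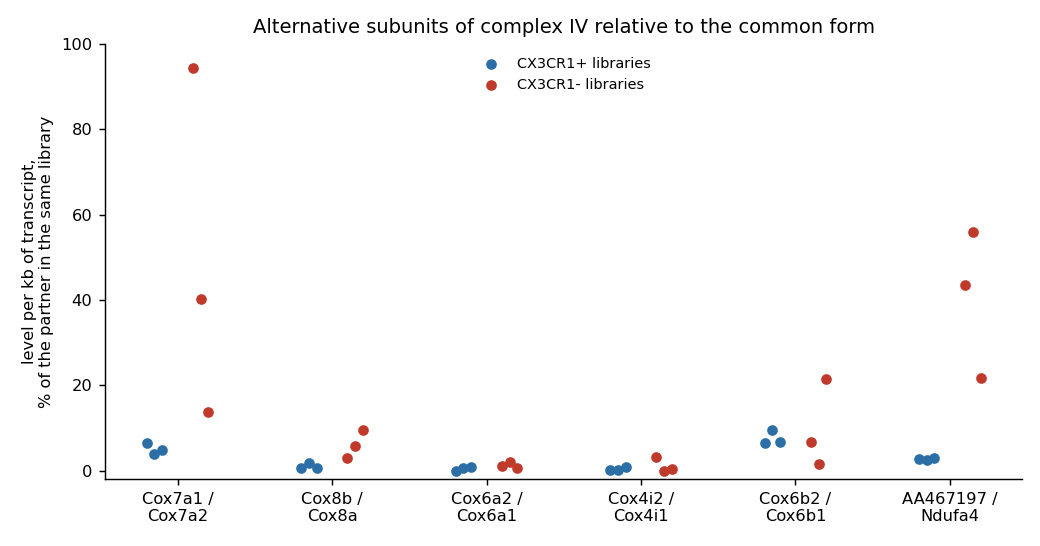
Level of an alternative subunit per kb of transcript, as a percentage of its common partner in the same library (vertical axis, linear), for 6 pairs of complex IV genes with CX3CR1+ libraries in blue and CX3CR1- in red. Cox7a1, Cox8b and AA467197 are higher in all 3 CX3CR1- libraries; Cox6a2, Cox4i2 and Cox6b2 overlap between the groups.

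Not every alternative form followed. Cox6a2, the muscle form of subunit VIa, measured 9.39, 12.5 and 3.99 in CX3CR1- and 0, 4.10 and 4.25 in CX3CR1+ replicates, below the limit for a test. Cox4i2, a form of subunit IV known from lung, measured 18.8, 0 and 1.99 against 0.463, 0.820 and 4.25, and Ndufa4l2, a relative of Ndufa4, measured 4.98, 3.01 and 0.838 against 1.55, 1.38 and 1.19. Most of these values lie near or under that of 3 reads, so that a difference was not detectable at this depth. Cox6b2, known from testis, measured 23.9, 5.23 and 51.8 against 17.9, 17.7 and 12.5 and overlapped widely (log2 fold change 0.26, SE 0.723, adjusted p = 0.835).

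A further pair concerns Ndufa4, once assigned to complex I and now counted as a subunit of complex IV. It measured 237, 231 and 264 in CX3CR1- and 210, 288 and 182 in CX3CR1+ replicates and was not called (log2 fold change 0.13, SE 0.234, adjusted p = 0.738). AA467197, also known as Nmes1, is a paralog of Ndufa4 that the symbol rule does not cover. It measured 134, 168 and 74.9 against 7.37, 9.79 and 7.04 and was called higher (log2 fold change 3.74, SE 0.414, adjusted p = 0.000132). Like Cox7a1 and Cox8b, AA467197 passed the limit of 10 on the mean only through the CX3CR1- libraries (mean of 125, against 8.07 in CX3CR1+). Its call therefore supports nothing about the members as a group. Per kb it stood at 43.4, 55.9 and 21.9% of Ndufa4 in CX3CR1- cells.

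Of the remaining subunits of complex IV, none was called. Cox4i1, the common form of subunit IV, measured 623, 715 and 596 against 509, 516 and 488 (log2 fold change 0.35, SE 0.171, adjusted p = 0.176). Cox5a measured 249.8, 245 and 147 against 139, 128 and 122 (log2 fold change 0.68, SE 0.266, adjusted p = 0.0948). Cox6a1 measured 700.5, 524 and 578 against 485, 477 and 399.7 (log2 fold change 0.40, SE 0.191, adjusted p = 0.167). Without CX3CR1- replicate 3, Cox5a reached 0.93 and was called (adjusted p = 0.0177). In these 3 genes every CX3CR1- library was above every CX3CR1+ library without a call, and with equal totals Cox4i1 and Cox6a1 fell below 0.

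Cox6b1 measured 374, 345 and 255 against 294, 197 and 193 and overlapped (log2 fold change 0.52, SE 0.250, adjusted p = 0.172). Cox7b, a structural subunit, measured 571, 392 and 301 against 239, 264 and 228 (log2 fold change 0.74, SE 0.252, adjusted p = 0.0579). Cox7b was the member of this complex closest to a call among those without one, and without CX3CR1- replicate 3 it was called (log2 fold change 0.96, adjusted p = 0.0187).

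Complex V makes ATP with a rotating ring of c subunits in the membrane and the F1 head in the matrix. The F1 head, formed by Atp5a1, Atp5b, Atp5c1, Atp5d and Atp5e, had 3 of 5 members called higher (against 13.3% of all genes), and in all 5 the groups did not overlap (against 20.3%). Of the other 11 members of the complex, 1 was called higher (9.09%), and in 7 the groups did not overlap (63.6%). Whether the F1 head differs from these 11 was not tested. Atp5b, the catalytic beta subunit, measured 2894, 2186 and 2329 in CX3CR1- and 1642, 1406 and 1366 in CX3CR1+ replicates (log2 fold change 0.74, SE 0.164, adjusted p = 0.00823). Atp5a1, the alpha subunit, measured 1762, 1672 and 1629 against 1194, 1266 and 1051 (log2 fold change 0.53, SE 0.151, adjusted p = 0.0276). Atp5d, a subunit of the central stalk, measured 549, 448 and 361 against 251, 233 and 281 (log2 fold change 0.81, SE 0.217, adjusted p = 0.0212).

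These fold changes are below 2-fold. With equal totals none of the 3 was called and that of Atp5a1 was -0.03. Atp5a1 and Atp5d also lost the call without CX3CR1- replicate 1 or any one of the CX3CR1+ libraries, with adjusted p up to 0.115 and 0.0910. Without an intensity trend in the fit, Atp5a1, Atp5b and Atp5d were not called either (adjusted p = 0.141, 0.0740 and 0.0711). Atp5c1, the gamma subunit, measured 698, 664 and 612 against 481, 543 and 441 (log2 fold change 0.43, SE 0.176, adjusted p = 0.106).

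The c ring is encoded by 3 genes, Atp5g1, Atp5g2 and Atp5g3, whose mature proteins are the same. Atp5g3 measured 520.4, 409 and 459 in CX3CR1- and 188, 223 and 179 in CX3CR1+ replicates. It had the smallest adjusted p of all members, with a log2 fold change of 1.23 (SE 0.204, adjusted p = 0.00161). It lies on chr2:73908447-73911326 (GRCm38, minus strand). Atp5g1 measured 225, 439.8 and 234 against 229, 240.1 and 135 and overlapped (log2 fold change 0.54, SE 0.324, adjusted p = 0.265).

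Atp5g2 measured 71.1, 67.1 and 68.0 against 85.7, 55.9 and 77.3 (log2 fold change -0.06, SE 0.290, adjusted p = 0.902). Of the c-ring genes, Atp5g3 alone was called, but the differences between the 3 fold changes were not tested, and 40.2% of the 31-base stretches of Atp5g2 and 14.1% of those of Atp5g1 also occur in other genes, against 0% for Atp5g3. Atp5s, which matches the symbol rule but is not a structural subunit, measured 37.7, 0 and 66.6 against 17.9, 15.4 and 14.9. Its log2 fold change of -0.31 (SE 1.29, adjusted p = 0.892) was set by CX3CR1- replicate 2, and without that library it was 1.59 (adjusted p = 0.0301).

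Of the 12 calls, 5 were present whichever library was left out: Atp5b, Atp5g3, Cox7a1, Ndufa6 and Uqcrfs1. With equal totals, where 9.35% of all genes were called higher, 3 remained, namely Atp5g3, Cox7a1 and Cox8b.

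Sequence near the transcription starts was not used by the symbol rule. RefSeq promoters (GRCm38.p6, 250 bases before to 50 after the start) were matched for 67 of the 81 genes. NRF1, a transcription factor known for nuclear respiratory genes, binds a palindromic core, searched here as GCGCAN followed directly by GCGC. This core, on either strand, stood in the promoters of 17 of the 67 genes (25.4%), against 5.19% of 27025 genes. The ETS core CCGGAAG, which GABP can bind, stood in 16 (23.9%, against 9.93%), and the YY1 core AAGATGG in 11 (16.4%, against 7.28%). A match is a stretch of letters and not a measured binding site.

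Of the 17 genes with the NRF1 core, 5 were called higher, against 13.3% of all genes tested, and the median log2 fold change of the 17 was 0.77. Of the 50 tested members with a promoter but without the core, 6 were called, with a median of 0.45, and the difference between these groups was not tested. The 5 called genes are shown because they carry both the core and a call. Each sequence below is 30 bases of GRCm38.p6, read on the strand of the gene, with the core in capitals.
Ndufa8: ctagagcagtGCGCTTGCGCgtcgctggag
Ndufa11: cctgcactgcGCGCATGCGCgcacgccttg
Sdhd: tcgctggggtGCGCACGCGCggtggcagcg
Atp5g3: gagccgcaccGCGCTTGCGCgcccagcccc
Ndufa6: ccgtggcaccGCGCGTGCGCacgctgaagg

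They lie at chr2:36049349-36049378 (minus strand) for Ndufa8, chr17:56717692-56717721 (plus strand) for Ndufa11 and chr9:50603909-50603938 (minus strand) for Sdhd. Those of Atp5g3 and Ndufa6 lie at chr2:73911295-73911324 and chr15:82354249-82354278, both on the minus strand. The core begins 30, 60 and 79 bases before the RefSeq start of the transcript in Ndufa8, Ndufa11 and Sdhd, and at base 13 and 24 after it in Atp5g3 and Ndufa6. In GENCODE release M21 the Ndufa8 gene reaches to base 36049406 of chromosome 2, so that its core lies inside that gene model. The cores differ only in the central bases, where the search allows any letter on one strand.

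Among the factors that act on such promoters, the RNA of Nrf1 was not called (log2 fold change 0.16, SE 0.266, adjusted p = 0.716). Gabpa and Gabpb1, the subunits of GABP, were not called either, with log2 fold changes of -0.62 (SE 0.219, adjusted p = 0.0661) and -0.88 (SE 0.358, adjusted p = 0.106), although all 3 CX3CR1- libraries lay below the CX3CR1+ libraries in both. With equal totals over all genes both were called lower (adjusted p = 0.00187 and 0.00903), as were 30.2% of all genes, and Nrf1 turned to -0.40. Gabpa was also called lower without CX3CR1- replicate 3 (0.0362) and Gabpb1 without CX3CR1- replicate 1 (0.0472). Yy1 was called lower, with 294, 284 and 245 in CX3CR1- and 429.9, 407 and 425 in CX3CR1+ replicates (log2 fold change -0.62, SE 0.188, adjusted p = 0.0366). Of 16 regulators of mitochondrial biogenesis, 3 were called lower (against 11% of all genes) and 0 higher (against 13.3%). Besides Yy1 these were Esrrg, an orphan nuclear receptor (28.9, 23.1 and 30.7 against 59.0, 87.4 and 76.6, log2 fold change -1.39, SE 0.330, adjusted p = 0.0118), and Pprc1, a coactivator related to PGC-1 (129.6, 154 and 251 against 378, 429.6 and 305, log2 fold change -1.10, SE 0.278, adjusted p = 0.0162). These calls depend on libraries and settings: Yy1 lost its call without CX3CR1- replicate 3 or any one CX3CR1+ library (adjusted p up to 0.121), with the replicate block (0.0572), under quantile normalization (0.0657), without an intensity trend (0.0956) and with equal totals of genes not encoded in mitochondria (0.116), Esrrg without CX3CR1+ replicates 2 or 3 (up to 0.0742) and Pprc1 without CX3CR1- replicate 1 or CX3CR1+ replicates 1 or 2 (up to 0.0795) or the intensity trend (0.0589).

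Ppargc1a, which encodes PGC-1alpha, measured 319.6, 72.3 and 144 against 80.3, 42.6 and 44.9 and overlapped (log2 fold change 1.46, SE 0.495, adjusted p = 0.0568). Without CX3CR1- replicate 2 it was called (log2 fold change 1.98, adjusted p = 0.0116), as it was with the replicate block (adjusted p = 0.0116), a mean of at least 50 (0.0467), library quality weights (0.0273) and equal totals of genes not encoded in mitochondria (0.0436). The regulators as a list had a median log2 fold change of -0.11.

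The partner genes of the subunits are given list by list, and differences between the lists were not tested. All 13 mitochondrially encoded subunits were called higher, with log2 fold changes of 1.68 to 2.35 and a median of 2.06, beside the median of 0.48 for the nuclear members. The summed mitochondrially encoded subunits were 48.1, 38.7 and 50.6 times the summed nuclear members in CX3CR1- replicates 1, 2 and 3 and 15.9, 13.1 and 15.6 times in CX3CR1+ replicates 1, 2 and 3, a ratio within a library that does not depend on its scaling and did not overlap between the groups. The assembly factors, which help to build the complexes without staying in them, are given by their counts. Of 48 tested, 2 were called higher (4.17%, against 13.3% of all genes) and 0 lower (against 11%), with 5 higher and 0 lower at an unadjusted p of 0.05 (against 18.6% and 16.8%), and their median was 0.02.

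Both called factors are known for a part in copper delivery to complex IV. Cox19 measured 66.0, 90.3 and 76.7 in CX3CR1- and 28.8, 33.0 and 7.49 in CX3CR1+ replicates (log2 fold change 1.93, SE 0.520, adjusted p = 0.0216). Cox17 measured 438, 469 and 519.7 against 289, 247 and 288 (log2 fold change 0.79, SE 0.190, adjusted p = 0.0125). No CX3CR1+ library reached the lowest CX3CR1- library in either gene. Cox19 lost its call without any one CX3CR1- library (adjusted p up to 0.0655) and Cox17 without CX3CR1+ replicate 2 (adjusted p = 0.0664). Both calls were also lost without an intensity trend (0.0529 and 0.0504) and with equal totals over all genes (0.0535 and 0.3935).

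The citrate cycle, which supplies the NADH and succinate that the chain oxidizes, had 6 of 14 genes called higher (42.9%, against 13.3% of all genes) and 0 lower (against 11%), with a median log2 fold change of 0.63. Cs, the citrate synthase, measured 1527, 1129 and 851 in CX3CR1- and 354, 337 and 306 in CX3CR1+ replicates (log2 fold change 1.77, SE 0.226, adjusted p = 0.000316). Mdh2, the malate dehydrogenase of the mitochondrion, measured 1385, 1224 and 766 against 307, 301 and 217 (log2 fold change 2.001, SE 0.254, adjusted p = 0.000308). The other calls were Ogdh, Sucla2, Suclg1 and Idh3a, with log2 fold changes of 1.13, 1.34, 1.24 and 1.09. With equal totals over all genes, Ogdh, Suclg1 and Sucla2 lost their calls (adjusted p = 0.0544, 0.0707 and 0.1005). Sucla2 also lost it without CX3CR1- replicates 1 or 2 or CX3CR1+ replicates 2 or 3 (adjusted p up to 0.0863). The same held for Sucla2 without an intensity trend (0.05945) and under quantile normalization (0.0577). Idh3a lost its call without any one library other than CX3CR1+ replicate 2 (adjusted p up to 0.162). It also lost it with the replicate block (0.0589), no filter on low values (0.0583), no intensity trend (0.0743), library quality weights (0.0854), quantile normalization (0.112) and equal totals over all genes (0.238). The CX3CR1- libraries of Cs and Mdh2 kept the order of their summed enterocyte markers, 33860, 31126 and 19237 in replicates 1, 2 and 3, and the part of those cells was not tested.

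Among 14 tested genes of electron carriers and shuttles, 2 were called higher (14.3%, against 13.3% of all genes) and 0 lower (against 11%). Coq2, an enzyme of ubiquinone synthesis, measured 81.8, 61.4 and 56.0 against 26.6, 27.0 and 25.9 (log2 fold change 1.27, SE 0.329, adjusted p = 0.0175). Gpd2, the glycerol 3-phosphate dehydrogenase that feeds electrons to ubiquinone, measured 659, 372 and 424 against 247, 202 and 284 (log2 fold change 0.96, SE 0.255, adjusted p = 0.0207). The call of Coq2 was lost without CX3CR1- replicate 1 or any one CX3CR1+ library (adjusted p up to 0.0592), and that of Gpd2 without CX3CR1- replicate 1 or CX3CR1+ replicates 1 or 2 (adjusted p up to 0.0931). Both calls were also lost with equal totals over all genes (0.104 and 0.234), that of Coq2 under quantile normalization (0.05965) and that of Gpd2 without an intensity trend (0.0735). Over all these lists without the mitochondrially encoded genes, 12 of 97 tested genes (12.4%) were called higher and 3 lower (against 11%). The first share is near the 13.3% of all genes.

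The fold changes of the members were also set against their levels and the sequence they share with other genes. Across the 78 genes, which share the same libraries and are not replicates, Pearson's r between the log2 fold change and the log2 mean was -0.28 and Spearman's rho was -0.00. The 39 members with under 5% of their 31-base stretches in other genes had a median of 0.45, and the other 39 had a median of 0.49. The calls were unevenly spread, with 10 of 39 in the first and 2 of 39 in the second of these groups, against 13.3% of all genes tested. Whether shared sequence plays a part was not tested.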

How the data were processed

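Bulk RNA-seq was run on 6 libraries of sorted ME cells, 3 CX3CR1- and 3 CX3CR1+, which were grouped by the sample labels. The authors pseudoaligned 75 bp single reads to the mouse transcriptome (mm10, GENCODE release M16) with Kallisto and imported the result through tximport. Per gene, the authors added up the estimated counts and scaled them between libraries with DESeq2, and this normalized signal is what they deposited. Its values are not read counts, since only 42.5 to 44.6% of the values above 0 were whole multiples of the smallest step of a library (tolerance 0.01 of a read). That step gave the approximate reads per library, from 5346379 to 17616748, and the value of 3 reads, which covers counting error only.

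Genes with a mean of at least 10 were fitted as log2(value + 1) by the functions lmFit and eBayes of limma 3.58.1 (R 4.3.3). The variance prior followed an intensity trend, tests were two-sided and Benjamini-Hochberg adjustment covered all genes tested. A fold change on that scale understates the change of low genes. An exact permutation test of 3 libraries against 3 cannot go below p = 0.1 and was not used for calls. The fit was tested on simulated data. A complex was summarized as the mean log2(value + 1) of its members in each library, with no p. Ndufa4 and Ndufa4l2 were counted in complex IV and all other Nduf genes in complex I. Members, gene lists and tests were chosen with earlier results of these data known, so that none of them is independent support, and no list was tested as a set.

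Values in every library are given for catalytic and core subunits, for sets of alternative forms, for the members with the highest and lowest fold change of each complex and the 5 smallest adjusted p in each direction. Values of 1 of these genes are not reported here. The other called members, Ndufb6, Ndufb4, and Cyc1, Cox17, Gpd2, Yy1, Nrf1, Gabpa, Gabpb1, Acta1 and Ppargc1a of the lists were added after their values were seen. Transcript lengths and shared 31-base stretches came from GENCODE release M21 (GRCm38), and promoter sequences from RefSeq (GRCm38.p6). The alternatives were a pseudocount of 0.5 or 10, testing all genes or those averaging 50 or more, rescaling by median of ratios, by quantiles or to equal totals with and without mitochondrially encoded genes, no intensity trend, weights for library quality, leaving out each library, and adjacent library numbers as a replicate block. Plots were drawn with matplotlib 3.10.9.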

Additional observations from a re-analysis of the deposited data

How the results depend on the processing

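Relative to all genes tested, the median of the members stayed 0.41 to 0.62 above (log2) under all alternatives, but single calls and the absolute direction depended on the scaling. With equal totals over all genes, 3 members were called higher (against 9.35% of all genes) and 3 lower (against 30.2%). Of these calls, 2 were higher with a 2-fold change, and the mean difference was -0.10, -0.061, -0.0046, 0.16 and -0.035 in complexes I to V. The log2 fold changes that turned negative there were Atp5a1 -0.033, Atp5c1 -0.13, Atp5g1 -0.018, Cox4i1 -0.21, Cox6a1 -0.16, Cox6b1 -0.047, Cox6b2 -0.27, Cox7a2 -0.11, Cox8a -0.11, Ndufa4 -0.43, Nrf1 -0.40, Sdha -0.19, Sdhb -0.038 and Sdhc -0.24. With equal totals over genes not encoded in mitochondria, 29 members were called higher (against 15.7% of all genes), the differences of complexes I, III and IV were 0.63, 0.73 and 0.88, and Atp5g2 and Uqcr11 turned to 0.11 and 0.16. Quantile normalization gave 0.32 for complex I and turned Cox6b2 to -0.16 and Cox7a2l to 0.12. Complex IV came to 0.54 with a pseudocount of 10 and to 0.39 with a mean of at least 50, which leaves out Cox7a1, Cox8b and Cox6b2. Uqcr11 turned to 0.054 with library quality weights and 0.012 with median-of-ratios rescaling, and Atp5s to 0.35 with a pseudocount of 10.

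Leaving out 1 library gave 7 to 14 calls (against 9.73 to 13.7% of all genes called higher) and 5 to 9 with a 2-fold change. Without any one of the CX3CR1+ libraries there were 7 calls. In the fits without CX3CR1+ replicates 1, 2 and 3, 10.2, 9.98 and 9.73% of all genes were called higher. Over all leave-outs, the ranges were 0.36 to 0.51, 0.33 to 0.66, 0.45 to 0.65, 0.61 to 0.79 and 0.41 to 0.65 for complexes I to V. They crossed 0 for Atp5g2 (-0.24 to 0.063), Atp5s (-1.45 to 1.59), Cox6b2 (-0.44 to 1.11), Ndufa4 (-0.015 to 0.31), Nrf1 (-0.024 to 0.37) and Uqcr11 (-0.38 to 0.26). For the other pathway genes, 12 called higher and 3 lower became 7 and 1 without an intensity trend, 3 and 12 with equal totals, 20 higher with totals of genes not encoded in mitochondria, and 7 to 12 and 0 to 4 on leaving out a library. Of all genes, 11.9% were called higher and 8.18% lower without an intensity trend, and 9.35 and 30.2% with equal totals. With totals of genes not encoded in mitochondria, 15.7% were called higher. Apart from what the settings themselves leave out, the causes were not tested.

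As the replicate block, adjacent library numbers gave 12 calls, the same 12 genes. Among the other genes named it lost the calls of Yy1 (adjusted p = 0.0572) and Idh3a (0.0589) and added Ppargc1a (0.0116). The labels give no batch or day for these numbers. The deviations of the 3 adjacent pairs correlated by 0.10, 0.04 and 0.01, and those of the other pairs by -0.083 to 0.040. With 3 libraries in each group, such correlations cannot decide whether adjacent libraries share a pool of mice. Depth limits Cox7a1 and Cox8b in CX3CR1+ cells and the 3 genes below the limit for a test.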
